A study of Mus musculus with 18 samples.

Results

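The genes of mitochondrial fatty acid oxidation and ketone metabolism were followed in perigonadal white adipose tissue of mice that lost weight in an anorexia model and of mice that regained it. Members were the genes of a list of 35 symbols that appear in the table of weight-restored against anorexic mice, where 34 of the 35 were found among 16272 tested genes. The symbol *Mut*, for methylmalonyl-CoA mutase, did not match, and the same enzyme appears as *Mmut*, which is given apart from the members. All 34 members are annotated as protein-coding. The libraries are bulk RNA from young adult female C57BL/6J wild-type mice, each labelled as a separate mouse, with a running wheel in every group. ABA mice (activity-based anorexia, 6 libraries) had food at scheduled times that were shortened step by step, and were killed once the set weight loss was reached. WR mice (weight restored, 6 libraries) went through the same schedule and then had food ad libitum until their weight was regained and held. CON mice (controls, 6 libraries) had food ad libitum, and each was killed at the time of its ABA counterpart, so WR mice were older than both other groups and age cannot be told apart from weight restoration.

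Fatty acids are burned in mitochondria by beta-oxidation. Long-chain acyl-CoA is carried in through the carnitine shuttle, and then loses acetyl-CoA units in a cycle of dehydrogenation, hydration, a second dehydrogenation and thiolysis, with the electrons passed on through the electron transfer flavoprotein (ETF). White adipocytes mainly store fat and release it for other organs to oxidize, whereas ketone bodies are made chiefly in the liver and burned elsewhere through the enzyme encoded by *Oxct1*.

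Neither values of single mice nor the depth of each library were analysed here: each gene enters as a fitted difference between groups, whose SE carries the spread between mice. Changed genes are those with a Benjamini-Hochberg adjusted p under 0.05 over all tested genes in the authors' deposited limma-voom tables. ABA minus CON and WR minus CON list changed genes alone, while WR minus ABA lists every tested gene. The leptin gene *Lep* had a log2 fold change of -6.48 (SE 0.85) in ABA minus CON and 6.59 (SE 0.84) in WR minus ABA. It served to set the common sign of the comparisons, so its direction is no separate check of the labels. Of 15 white adipocyte markers all were tested, with *Cfd*, *Fabp4* and *Adipoq* among them at average levels of 12.77, 12.36 and 10.86 log2 CPM (counts scaled to the library total). Of these markers, 2 rose (13.3%, *Cidec* and *Pnpla2*) and 7 fell (46.7%) in ABA against CON, beside 20.9% and 25.4% of all tested genes. Macrophage markers rose at 1 of 10 (10%, *Cd163*) and fell at 7 (70%). Progenitor and fibroblast markers rose at 2 of 10 (20%, *Dcn* and *Dpp4*) and fell at 7 (70%), and endothelial markers fell at 1 of 8 (12.5%, *Tek*). Among 6 tested ovary and uterus markers 1 rose (16.7%, *Ovgp1*) and 2 fell (33.3%, *Star* and *Pgr*). In WR against ABA 25.0% of all tested genes were higher and 20.9% lower. There 9 of the macrophage markers were higher (90%, all but *Cd163*), as were 6 of the endothelial markers (75%). Progenitor and fibroblast markers were higher at 7 (70%) and lower at 2 (20%, *Dcn* and *Pdgfra*). White adipocyte markers were higher at 6 (40%) and lower at 3 (20%, *Cidec*, *Pnpla2* and *Pparg*), and 1 of the ovary and uterus markers was lower (16.7%, *Ovgp1*). In WR against CON 3 of the 8 endothelial markers were higher (*Cdh5*, *Cldn5* and *Egfl7*), or 37.5% beside 4.04% of all tested genes, as was *Thy1* of the progenitor and fibroblast markers, while *Pdgfra* and *Cfd* were lower. In bulk tissue fewer cells of a type and less RNA per cell cannot be told apart, and the part of these markers in the changes below was not tested.

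In ABA against CON, 14 of the 34 members rose, or 41.2%, beside 20.9% of all tested genes that were higher in ABA. Another 4 members fell, or 11.8%, beside 25.4% of all tested genes, and 16 were not called. The members were expressed above most tested genes, with a median average level of 6.96 log2 CPM beside 3.83 over all. Of the 34, 31 lay above the median of all tested genes. The shares over all tested genes here were not matched for expression level, on which the power to call a change depends. The rises were moderate: their median was 1.54-fold, beside 1.52-fold over all genes that rose, and they ranged from 1.23-fold (*Echs1* and *Echdc2*) to 1.73-fold (*Hadhb*). In WR against ABA, 18 members fell, or 52.9%, beside 20.9% of all tested genes that were lower in WR, and 4 rose, or 11.8%, beside 25.0% of all tested genes. The median log2 fold change in WR minus ABA was -0.37 over the members and 0.01 over all tested genes. Each of the 18 members changed in ABA changed again in WR against ABA, with the opposite sign. The share of all genes changed in ABA that did the same was not counted. Reversal was common beyond the members: over all genes changed in ABA, WR minus ABA undid 87.9% of the change at the median. Both comparisons use the same ABA libraries, so an opposite sign here is not an independent repeat, and WR minus CON shares its libraries with both. No member was listed as changed in WR against CON, where 4.04% of all tested genes were higher and 3.18% were lower. *Mmut*, counted as the listed *Mut*, would add 1 member to those higher in ABA (log2 fold change 0.29, SE 0.11, adjusted p = 0.0481) and 1 to those lower in WR than in ABA (-0.36, SE 0.11, adjusted p = 0.0148).

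**Figure D1:**
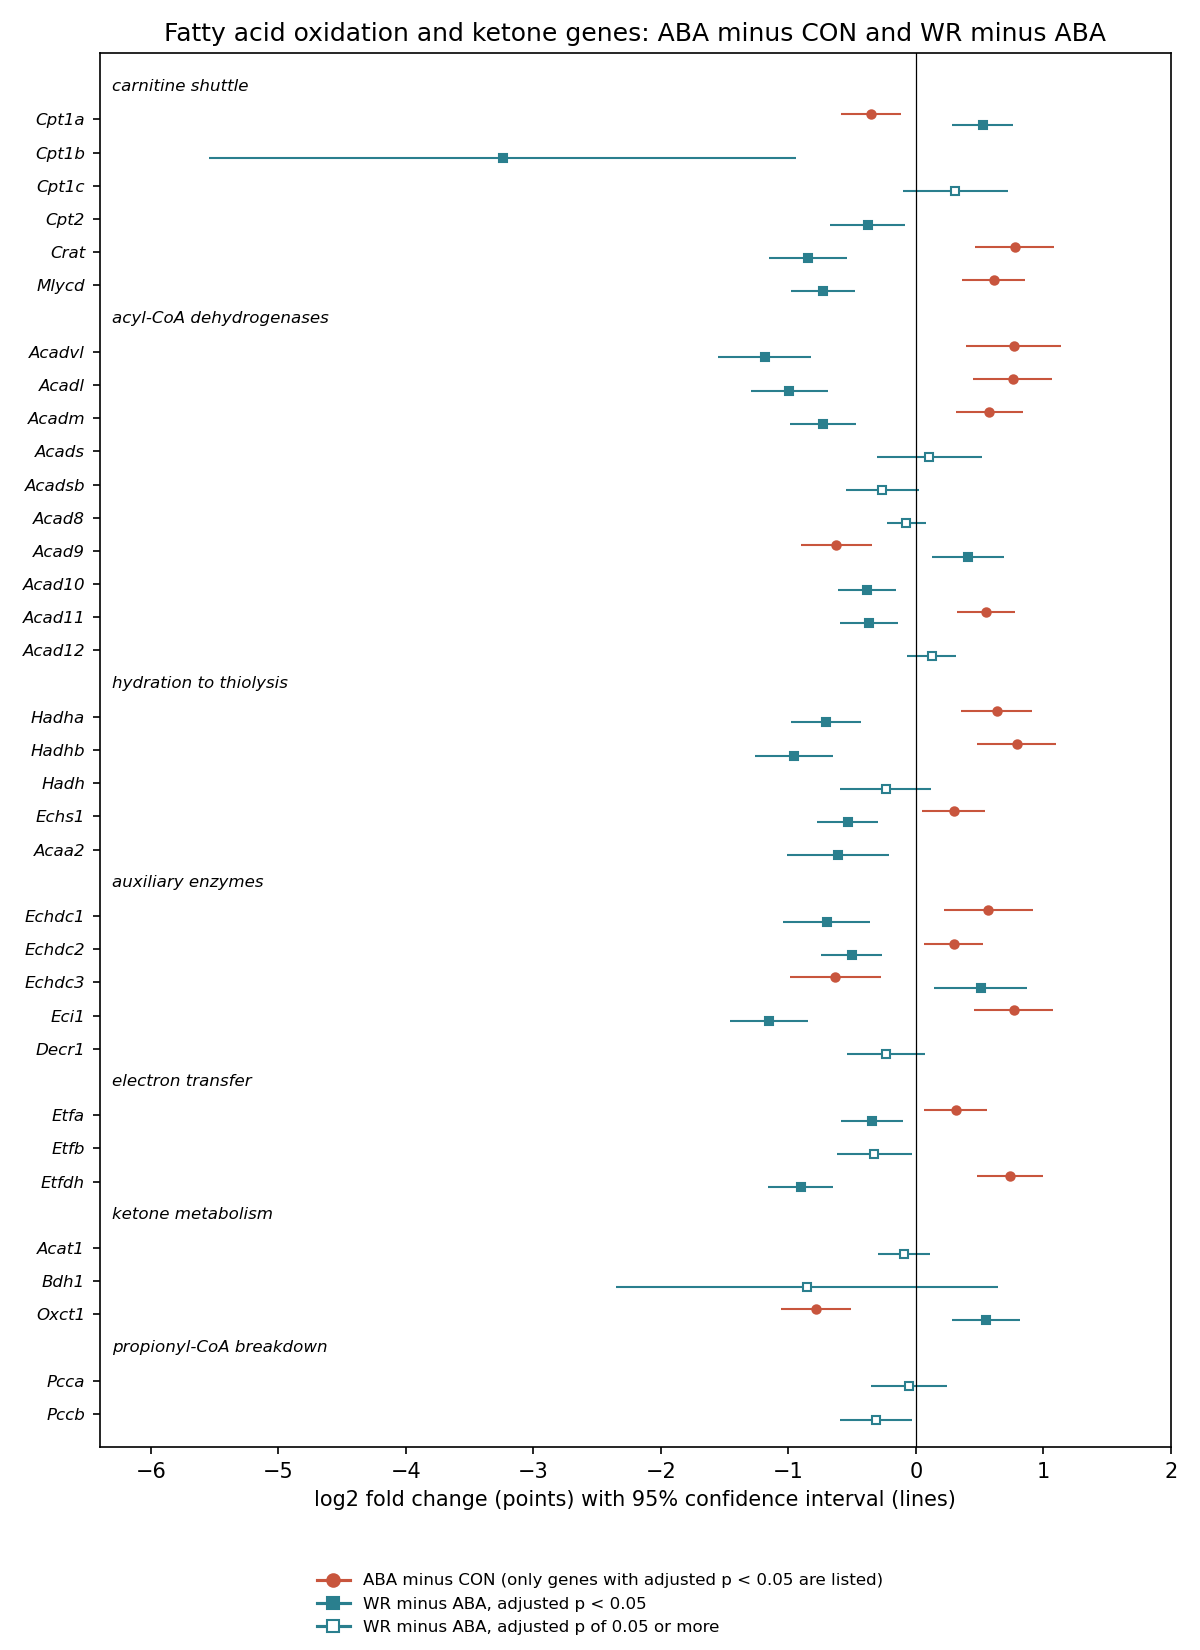
Log2 fold change (horizontal axis) of each member, grouped by role, in ABA minus CON (circles) and WR minus ABA (squares, filled where the adjusted p is under 0.05), with 95% confidence intervals as lines; 6 libraries a group. Of the members with a circle, 14 lie right of 0 and 4 left of it, and each has its square on the other side; members with no circle are not listed in ABA minus CON.

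The acyl-CoA dehydrogenases that open the oxidation of long and medium chains rose together in ABA. *Acadl* (ENSMUSG00000026003, chromosome 1 of GRCm38, 66830839 to 66863277), the long-chain enzyme, stood at an estimated group level of 528 CPM in ABA, 266 CPM in WR and 312 CPM in CON. Its log2 fold change was 0.76 in ABA minus CON (SE 0.15, adjusted p = 0.000444) and -0.99 in WR minus ABA (SE 0.14, adjusted p = 2.94e-05). *Acadvl* (ENSMUSG00000018574, chromosome 11, 70010183 to 70015411), the very-long-chain enzyme, stood at 214 CPM in ABA, 94.2 CPM in WR and 126 CPM in CON. It was 1.70-fold higher in ABA than in CON (log2 fold change 0.77, SE 0.18, adjusted p = 0.00183) and 2.27-fold lower in WR than in ABA (-1.19, SE 0.17, adjusted p = 3.23e-05). *Acadm* (ENSMUSG00000062908, chromosome 3, 153922357 to 153944632), the medium-chain enzyme, stood at 415 CPM in ABA, 251 CPM in WR and 278 CPM in CON. Its log2 fold changes were 0.58 in ABA minus CON (SE 0.13, adjusted p = 0.00112) and -0.73 in WR minus ABA (SE 0.12, adjusted p = 0.000118). For these 3 genes the highest estimated level was that of ABA and the lowest that of WR, though WR and CON were not called different. The short-chain enzyme gene *Acads* was not called in either comparison, with a log2 fold change of 0.10 in WR minus ABA (95% confidence interval -0.31 to 0.52). Whether it differed from its longer-chain relatives was not tested, since a difference between genes needs values of single mice.

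The other dehydrogenases of the family did not move as 1 group. *Acad11*, whose protein also carries a kinase-like domain, rose in ABA (log2 fold change 0.55, SE 0.11, adjusted p = 0.000569) and fell in WR against ABA (-0.37, SE 0.11, adjusted p = 0.0104). *Acad10*, of similar build, was not listed in ABA minus CON but fell in WR against ABA (-0.38, SE 0.11, adjusted p = 0.00827). *Acad12*, which lies directly beside *Acad10* on chromosome 5, was not called, at 0.12 in WR minus ABA (95% confidence interval -0.07 to 0.32), and reads that such related neighbours share are divided by estimate. *Acad9*, which is known mainly for the assembly of respiratory complex I, went the other way: it fell in ABA (-0.62, SE 0.13, adjusted p = 0.00100) and rose in WR against ABA (0.41, SE 0.13, adjusted p = 0.0184). The branched-chain enzymes were not called, with WR minus ABA at -0.26 for *Acadsb*, which acts in isoleucine breakdown (95% confidence interval -0.55 to 0.02), and -0.07 for *Acad8*, which acts in valine breakdown (-0.23 to 0.08).

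Of the 5 genes for the steps after the first dehydrogenation, 3 rose in ABA (60%) and 4 fell in WR against ABA (80%). Over all tested genes the share was 20.9% for each. *Hadha* and *Hadhb* encode the alpha and beta subunits of the mitochondrial trifunctional protein, which carries out hydration, the second dehydrogenation and thiolysis of long chains. They lie head to head on chromosome 5 of GRCm38, *Hadha* on the minus strand from 30118304 to 30155162 and *Hadhb* on the plus strand from 30155248 to 30184593. *Hadha* stood at 415 CPM in ABA, 255 CPM in WR and 267 CPM in CON, and *Hadhb* at 352 CPM in ABA, 181 CPM in WR and 203 CPM in CON. Both subunits were thus highest in ABA and close together in WR and CON. In ABA minus CON the log2 fold change was 0.63 for *Hadha* (SE 0.13, adjusted p = 0.000865) and 0.79 for *Hadhb* (SE 0.15, adjusted p = 0.000337). In WR minus ABA it was -0.70 for *Hadha* (SE 0.13, adjusted p = 0.000287) and -0.96 for *Hadhb* (SE 0.15, adjusted p = 4.65e-05). *Echs1*, the short-chain enoyl-CoA hydratase, rose in ABA (0.30, SE 0.12, adjusted p = 0.0444) and fell in WR against ABA (-0.54, SE 0.12, adjusted p = 0.000975). *Acaa2*, a mitochondrial thiolase, fell in WR against ABA (-0.61, SE 0.19, adjusted p = 0.0144) and was not listed in ABA minus CON. *Hadh*, the short- and medium-chain hydroxyacyl-CoA dehydrogenase, was not called (-0.24 in WR minus ABA, 95% confidence interval -0.59 to 0.12).

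*Eci1* (ENSMUSG00000024132, chromosome 17, 24426641 to 24439348), an isomerase that moves double bonds of unsaturated fatty acids into place for the cycle, had the smallest adjusted p of all members in WR minus ABA. It stood at 148 CPM in ABA, 66.8 CPM in WR and 87.2 CPM in CON, and its log2 fold changes were 0.77 in ABA minus CON (SE 0.15, adjusted p = 0.000383) and -1.15 in WR minus ABA (SE 0.15, adjusted p = 7.21e-06). *Decr1*, the reductase that also serves unsaturated fatty acids, was not called (-0.23 in WR minus ABA, 95% confidence interval -0.54 to 0.07). The 3 genes with an enoyl-CoA hydratase domain split. *Echdc1*, a decarboxylase that clears ethylmalonyl-CoA, and *Echdc2* rose in ABA, by 0.57 (SE 0.17, adjusted p = 0.00903) and 0.30 (SE 0.11, adjusted p = 0.0332), and fell in WR against ABA, at -0.70 (SE 0.16, adjusted p = 0.00188) and -0.50 (SE 0.11, adjusted p = 0.00142). *Echdc3* fell in ABA (-0.63, SE 0.17, adjusted p = 0.00544) and rose in WR against ABA (0.51, SE 0.17, adjusted p = 0.0236).

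Genes of electron transfer from the dehydrogenases to the respiratory chain rose in ABA at 2 of 3, or 66.7%, beside 20.9% of all tested genes. *Etfdh* (ENSMUSG00000027809, chromosome 3, 79603788 to 79629500) encodes the oxidoreductase that hands the electrons to ubiquinone, and had the smallest adjusted p of the members that rose in ABA. It stood at 178 CPM in ABA, 94.9 CPM in WR and 106 CPM in CON. Its log2 fold change was 0.74 in ABA minus CON (SE 0.12, adjusted p = 0.000121) and -0.90 in WR minus ABA (SE 0.12, adjusted p = 1.43e-05). *Etfa*, the alpha subunit of ETF, rose by 0.31 in ABA minus CON (SE 0.12, adjusted p = 0.0363) and fell in WR against ABA (-0.35, SE 0.12, adjusted p = 0.0209). *Etfb*, the beta subunit, was not listed in ABA minus CON and missed the threshold in WR minus ABA (-0.33, SE 0.14, adjusted p = 0.0654).

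The carnitine shuttle was not uniform. *Cpt1a* (ENSMUSG00000024900, chromosome 19, 3322334 to 3385733), the liver-type carnitine palmitoyltransferase of the outer membrane and the step that malonyl-CoA inhibits, stood at 60.7 CPM in ABA, 87.3 CPM in WR and 77.5 CPM in CON. It fell in ABA (log2 fold change -0.35, SE 0.11, adjusted p = 0.0163) and rose in WR against ABA (0.52, SE 0.11, adjusted p = 0.00101), against the direction of most members. *Cpt1b* (ENSMUSG00000078937, chromosome 15, 89416405 to 89425863), the muscle-type isoform that brown fat also uses, was 9.43-fold lower in WR than in ABA. That estimate is imprecise: the log2 fold change was -3.24 with an SE of 1.10 and a 95% confidence interval of -5.54 to -0.94 (adjusted p = 0.0219), and the gene was not listed in ABA minus CON. Its average level over all libraries was 3.25 log2 CPM, and the median SE over the members in WR minus ABA was 0.14. *Cpt2*, the inner membrane enzyme that completes the import, fell in WR against ABA (-0.38, SE 0.14, adjusted p = 0.0357), and *Cpt1c*, a form known mainly from brain, was not called (0.31, 95% confidence interval -0.10 to 0.72).

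Markers of 2 tissues that use *Cpt1b*, skeletal muscle and brown fat, were read beside it. Of 12 skeletal muscle markers none passed the test in either comparison (0 of 12 also at an unadjusted p under 0.05 in WR minus ABA), and their estimates in WR minus ABA, all above 0, were imprecise, with an SE between 1.11 (*Acta1*) and 2.93 (*Myh4*). Their average levels ranged from -0.07 log2 CPM (*Pvalb*) to 5.04 log2 CPM (*Acta1*). Of 12 brown and beige adipocyte markers 11 were tested, and *Zic1* was not among the tested genes. All 11 estimates in WR minus ABA were below 0 and 5 passed the test (45.5%, beside 20.9% of all tested genes that were lower): *Elovl3* (-4.43, SE 0.67), *Cidea* (-3.27, SE 0.94), *Pank1* (-2.10, SE 0.31), *Cox8b* (-1.56, SE 0.42) and *Tmem26* (-0.72, SE 0.29). Of these, *Elovl3*, *Cidea* and *Pank1* also rose in ABA against CON (27.3% of the tested markers, beside 20.9% of all tested genes). *Ucp1*, the defining thermogenic gene, did not pass (-2.39, SE 2.10, adjusted p = 0.370), at an average level of 3.08 log2 CPM. The part of muscle or of brown-like fat in the change of *Cpt1b* or of other members was not tested.

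The remaining genes of the shuttle act on acyl groups and malonyl-CoA. *Crat*, the carnitine acetyltransferase that buffers mitochondrial acetyl-CoA, stood at 502 CPM in ABA, 279 CPM in WR and 293 CPM in CON (log2 fold change 0.78 in ABA minus CON, SE 0.15, adjusted p = 0.000377, and -0.85 in WR minus ABA, SE 0.15, adjusted p = 0.000141). *Mlycd*, whose enzyme breaks down malonyl-CoA, stood at 52.8 CPM in ABA, 31.9 CPM in WR and 34.6 CPM in CON (0.61, SE 0.12, adjusted p = 0.000410, and -0.73, SE 0.12, adjusted p = 9.52e-05). Both genes rose in ABA, unlike *Cpt1a*.

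Of the 3 members of ketone metabolism, only *Oxct1* changed. It fell in ABA (33.3%, beside 25.4% of all tested genes) and rose in WR against ABA (33.3%, beside 25.0%). With 3 genes these shares do not set ketone metabolism apart. *Oxct1* (ENSMUSG00000022186, chromosome 15, 4026383 to 4155344) encodes the CoA transferase that commits acetoacetate to oxidation, and stood at 150 CPM in ABA, 220 CPM in WR and 258 CPM in CON. In ABA it was lower by 1.72-fold against CON (log2 fold change -0.78, SE 0.13, adjusted p = 0.000109), the lowest adjusted p of any member in that comparison, and 1.47-fold higher in WR than in ABA (0.55, SE 0.13, adjusted p = 0.00166). *Acat1*, the acetoacetyl-CoA thiolase, was not called, with WR minus ABA at -0.09 (95% confidence interval -0.29 to 0.11). *Bdh1*, the dehydrogenase that interconverts acetoacetate and beta-hydroxybutyrate, averaged -0.01 log2 CPM over all libraries, and its interval in WR minus ABA was wide (-0.85, 95% confidence interval -2.35 to 0.65). The subunit genes of propionyl-CoA carboxylase, which takes up the end product of odd chains and branched amino acids, were not called either, at -0.31 for *Pccb* (SE 0.14, adjusted p = 0.0654) and -0.05 for *Pcca* (SE 0.14, adjusted p = 0.791) in WR minus ABA.

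Members that ABA minus CON does not list can still be bounded. A gene stays off that list while its p is above the largest one listed, 0.0231, and off the WR against CON list while its p there is above 0.00361. With the SE of WR minus ABA taken for both, these conditions and the known WR minus ABA set approximate limits. Within them, *Acad10* would lie between 0.02 and 0.27 in ABA minus CON, *Acaa2* between -0.03 and 0.48, *Cpt2* between -0.09 and 0.35 and *Cpt1b* between -0.42 and 2.72. The limits of *Acaa2*, *Cpt2* and *Cpt1b* include 0, and the lower limit of *Acad10* is so close to 0 that a slightly larger SE would reach it, so the sign is unsettled for each of the 4. For members called in neither comparison they were narrow for *Acad8* (-0.17 to 0.18) and wide for *Bdh1* (-1.53 to 1.77), so a change of *Bdh1* of the size seen in other members was not detectable at this precision. Of the 12 members called in neither comparison, 9 had a WR minus ABA below 0 and 3 above it, and 2 of the 12, *Pccb* and *Etfb*, had an unadjusted p under 0.05.

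The comparison of WR with CON asks whether these genes returned to the level of mice that never lost weight. Since no member is listed there, the difference was computed by adding both other comparisons for the 18 members that have them. Among the 14 members that had risen in ABA, 13 had a derived WR level below CON, all but *Acad11*, and the median was -0.16 on the log2 scale. Over all 3393 genes that rose in ABA, WR was below CON in 34.8%, and the median was 0.09. At the median, WR minus ABA amounted to 122% of the ABA rise over the 14 members, beside 84.9% over all risen genes. For the 4 members that had fallen in ABA it amounted to 75.4%, beside 90.7% over all fallen genes. These shares set comparisons with common ABA libraries against each other, and their error per gene is large, for example 154% (SE 31.2) for *Acadvl*, 150% (SE 25.3) for *Eci1* and 66.9% (SE 17.6) for *Acad11*. The members were measured in the same mice and are not independent cases. Whether the risen members as a set passed below CON in WR was not tested.

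**Figure D2:**
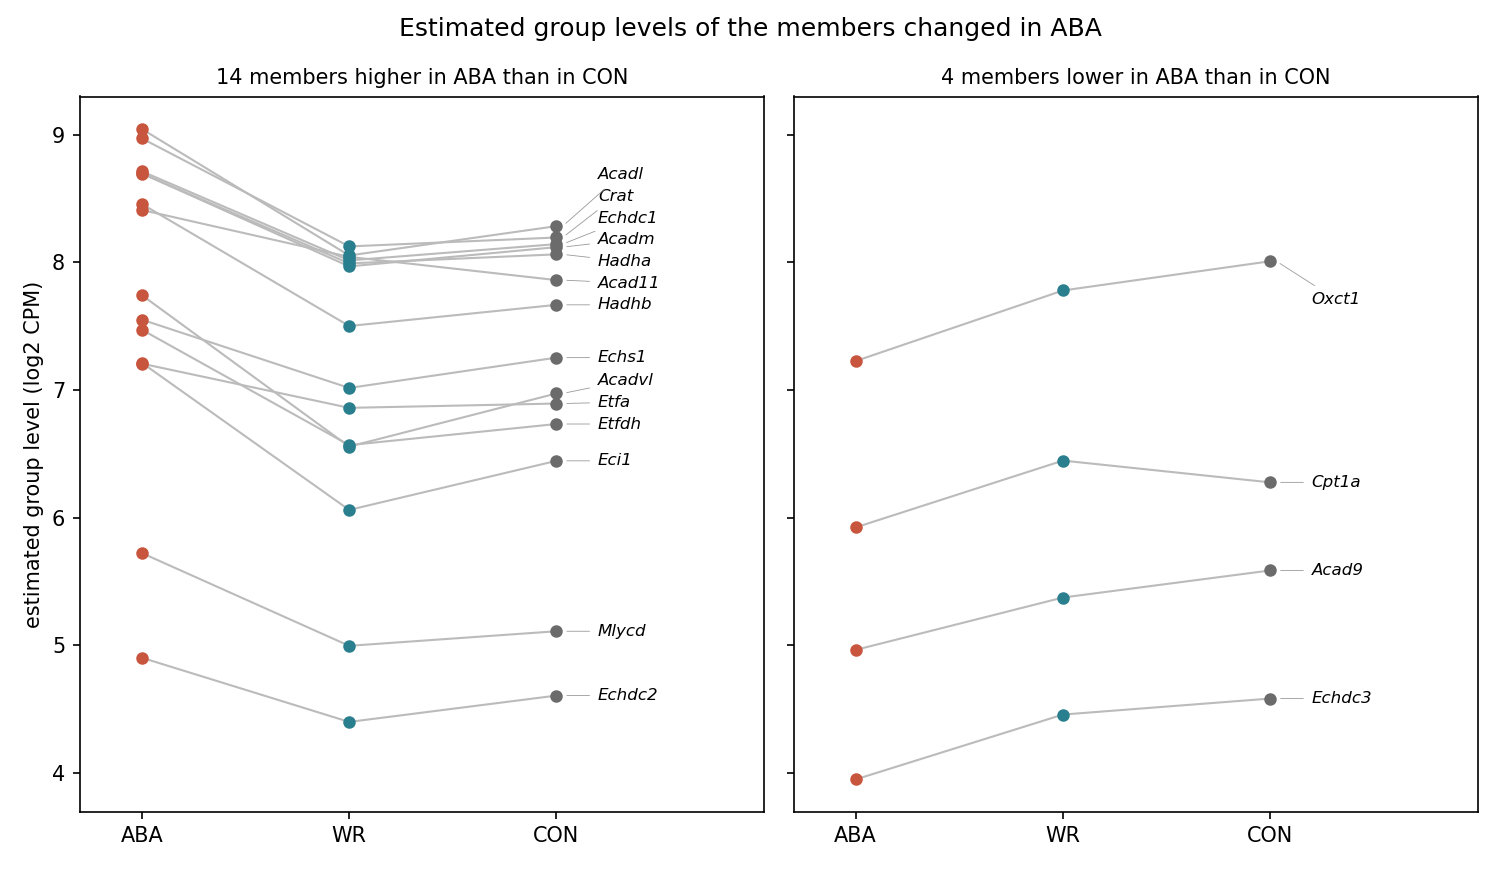
Estimated group level in log2 CPM (vertical axis) in ABA, WR and CON for the 14 members higher in ABA than in CON (left) and the 4 members lower (right); each line is 1 gene and group levels carry no error bar, since values of single mice were not used. The estimated WR level lies below that of CON, by differing amounts, for 13 of the 14 members at the left. *Oxct1*, *Echdc3* and *Acad9* at the right are also estimated below CON in WR. No member was called different between WR and CON.

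Single members did not separate WR from CON after adjustment. The lowest derived values were those of *Acadvl*, at -0.42 (SE 0.18, 95% confidence interval -0.79 to -0.05), and *Eci1*, at -0.38 (SE 0.15, 95% confidence interval -0.69 to -0.08). These were the 2 members with a derived p under 0.05 before adjustment, and the smaller of the 2, 0.0167 for *Eci1* from the derived difference over its derived SE, is above the largest p that the WR against CON table lists, 0.00361. *Echs1* stood at -0.24 (95% confidence interval -0.48 to 0.01), *Acadl* at -0.23 (-0.54 to 0.08) and *Hadhb* at -0.17 (-0.48 to 0.14). Closest to 0 was *Etfa* at -0.03 (-0.28 to 0.21). Of the members that had fallen in ABA, *Oxct1* was at -0.23 (-0.50 to 0.04), *Acad9* at -0.21 (-0.49 to 0.07) and *Echdc3* at -0.13 (-0.49 to 0.24), while *Cpt1a* was at 0.17 (-0.07 to 0.41). Apart from those of *Acadvl* and *Eci1* the intervals of the 18 members include 0. Those of *Echs1*, *Echdc2* (-0.44 to 0.03) and *Cpt1a* also hold a difference as large in size as their change in ABA (0.30, 0.30 and -0.35). The interval of *Acadvl* likewise holds one as large as its rise in ABA of 0.77.

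**Figure D3:**
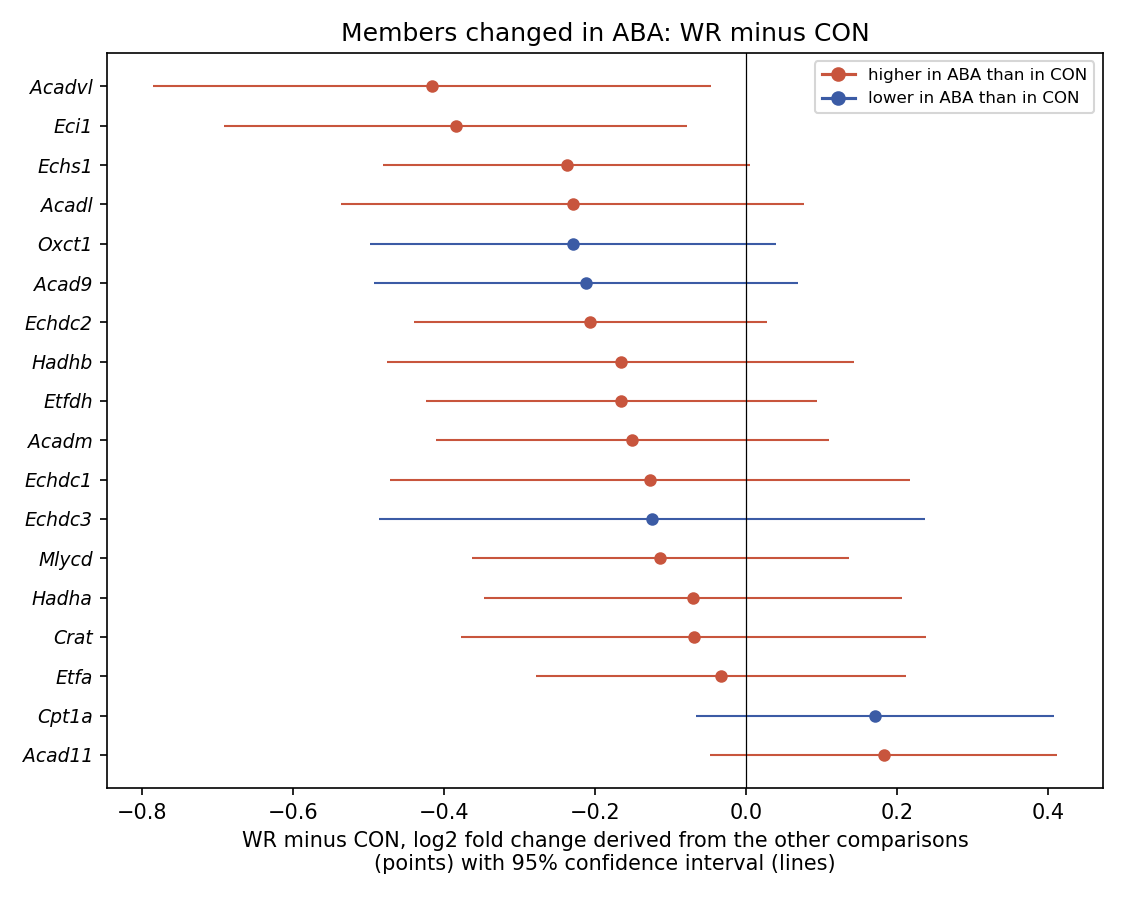
Derived WR minus CON in log2 fold change (horizontal axis) for the 18 members changed in ABA, with 95% confidence intervals as lines; red marks members higher and blue members lower in ABA than in CON. The intervals of *Acadvl* and *Eci1* lie below 0, and the intervals of the other 16 include 0.

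Other genes of the pathway were counted from a list of 25. Of 23 tested genes of fatty acid import and oxidation, 11 rose (47.8%) and 2 fell (8.7%) in ABA against CON. In WR against ABA 2 rose (8.7%) and 14 fell (60.9%), with a median WR minus ABA of -0.33. Over all tested genes 20.9% rose and 25.4% fell in ABA, and 25.0% rose and 20.9% fell in WR against ABA. *Slc25a20*, the carnitine-acylcarnitine carrier that works between *Cpt1a* and *Cpt2*, was at 1.07 in ABA minus CON (SE 0.14) and -1.06 in WR minus ABA (SE 0.14) on the log2 scale. *Hsd17b10*, a short-chain hydroxyacyl-CoA dehydrogenase, was at 1.90 in ABA minus CON (SE 0.15) and -2.25 in WR minus ABA (SE 0.15). *Slc25a32*, a mitochondrial folate and FAD carrier, was at 1.99 in ABA minus CON (SE 0.22) and -1.99 in WR minus ABA (SE 0.23). *Mmaa*, which serves the cobalamin cofactor of *Mmut*, was at 0.60 in ABA minus CON (SE 0.10) and -0.69 in WR minus ABA (SE 0.11). These 4 genes, with the smallest adjusted p of the list, all rose in ABA and fell in WR against ABA. *Acot9* and *Mmab* were the 2 that fell in ABA and rose in WR. In WR against CON *Mcat*, of mitochondrial fatty acid synthesis, was lower (-0.41, SE 0.11, adjusted p = 0.0350).

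In ketone metabolism beyond the members, 1 of 6 tested genes rose in ABA, *Bdh2*, and 1 fell, *Slc16a6*. Each is 16.7%, beside 20.9% of all tested genes that rose and 25.4% that fell. *Slc16a6*, a transporter that in zebrafish exports ketone bodies from liver, fell in ABA (-1.22, SE 0.18) and rose in WR against ABA (0.88, SE 0.19). *Bdh2* rose in ABA (0.71, SE 0.26) and fell in WR against ABA (-0.90, SE 0.28). *Aacs*, which uses acetoacetate for lipid synthesis in the cytosol, fell in WR against ABA (-0.86, SE 0.23) and was also lower in WR than in CON (-0.78, SE 0.23, adjusted p = 0.0463). Of 8 liver markers 5 were tested and none passed in either comparison (0 of 5 also at an unadjusted p under 0.05 in WR minus ABA). Their estimates in WR minus ABA, 4 below 0 and 1 above it, were imprecise, with an SE between 1.06 (*Alb*) and 1.37 (*Apob*).

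Of 29 tested regulators of the pathway, 14 rose (48.3%) and 5 fell (17.2%) in ABA against CON (*Rxra*, *Rxrg*, *Nr1d1*, *Nrip1* and *Prkaa1* fell). In WR against ABA 4 rose (13.8%: *Rxrg*, *Nr1d1*, *Nrip1* and *Sirt5*) and 15 fell (51.7%). Over all tested genes 20.9% rose and 25.4% fell in ABA, and 25.0% rose and 20.9% fell in WR against ABA. Several had larger fold changes in ABA minus CON than any of the 18 members listed there. *Pdk4* and *Pdk2*, kinases that switch pyruvate dehydrogenase off, were at 3.12 (SE 0.36) and 1.65 (SE 0.12) on the log2 scale in ABA minus CON, and at -2.72 (SE 0.36) and -1.76 (SE 0.12) in WR minus ABA. *Acacb*, which makes the malonyl-CoA that inhibits *Cpt1a* and *Cpt1b* proteins, was 4.69-fold higher in ABA than in CON (2.23, SE 0.22) and 6.50-fold lower in WR than in ABA (-2.70, SE 0.21). *Acacb* and *Mlycd*, whose enzyme breaks malonyl-CoA down, thus both rose in ABA. *Acaca*, which also makes malonyl-CoA, was not listed in ABA minus CON and not called in WR minus ABA (-0.66, SE 0.34, adjusted p = 0.122). *Ppargc1a*, a coactivator of mitochondrial genes, was at 2.13 in ABA minus CON (SE 0.35) and -2.18 in WR minus ABA (SE 0.36). The nuclear receptor genes *Ppara* and *Esrra*, whose proteins act on promoters of oxidation genes, rose by 0.89 (SE 0.30) and 0.55 (SE 0.12) in ABA and fell in WR against ABA, at -1.15 (SE 0.33) and -0.80 (SE 0.12). In WR against CON *Yy1* and *Angptl4* were higher and *Rxra* and *Tfam* lower.

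Mitochondrial genes of other function also rose in ABA and fell in WR against ABA. All 23 subunits of respiratory complexes on the list fell in WR against ABA and 19 rose in ABA against CON (all but *Sdhc*, *Uqcrc1*, *Cyc1* and *Atp5o*), with a median WR minus ABA of -0.77, and all 19 that rose had a WR level below CON (derived, or listed for *Atp5a1*, at -0.39, SE 0.12, adjusted p = 0.0498). Of 10 genes that mark mitochondrial mass, such as *Vdac1* of the outer membrane (0.54, SE 0.10, in ABA minus CON and -0.58, SE 0.10, in WR minus ABA), 4 rose in ABA (*Vdac1*, *Tomm20*, *Timm23* and *Hspe1*) and 7 fell in WR against ABA. The risen share in ABA was 82.6% of the subunits and 40% of the mass genes, beside 20.9% of all tested genes. The fallen share in WR against ABA was 100% and 70%, beside 20.9%. The members therefore changed beside a broader set of mitochondrial genes, and whether they moved apart from it was not tested.

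**Figure D4:**
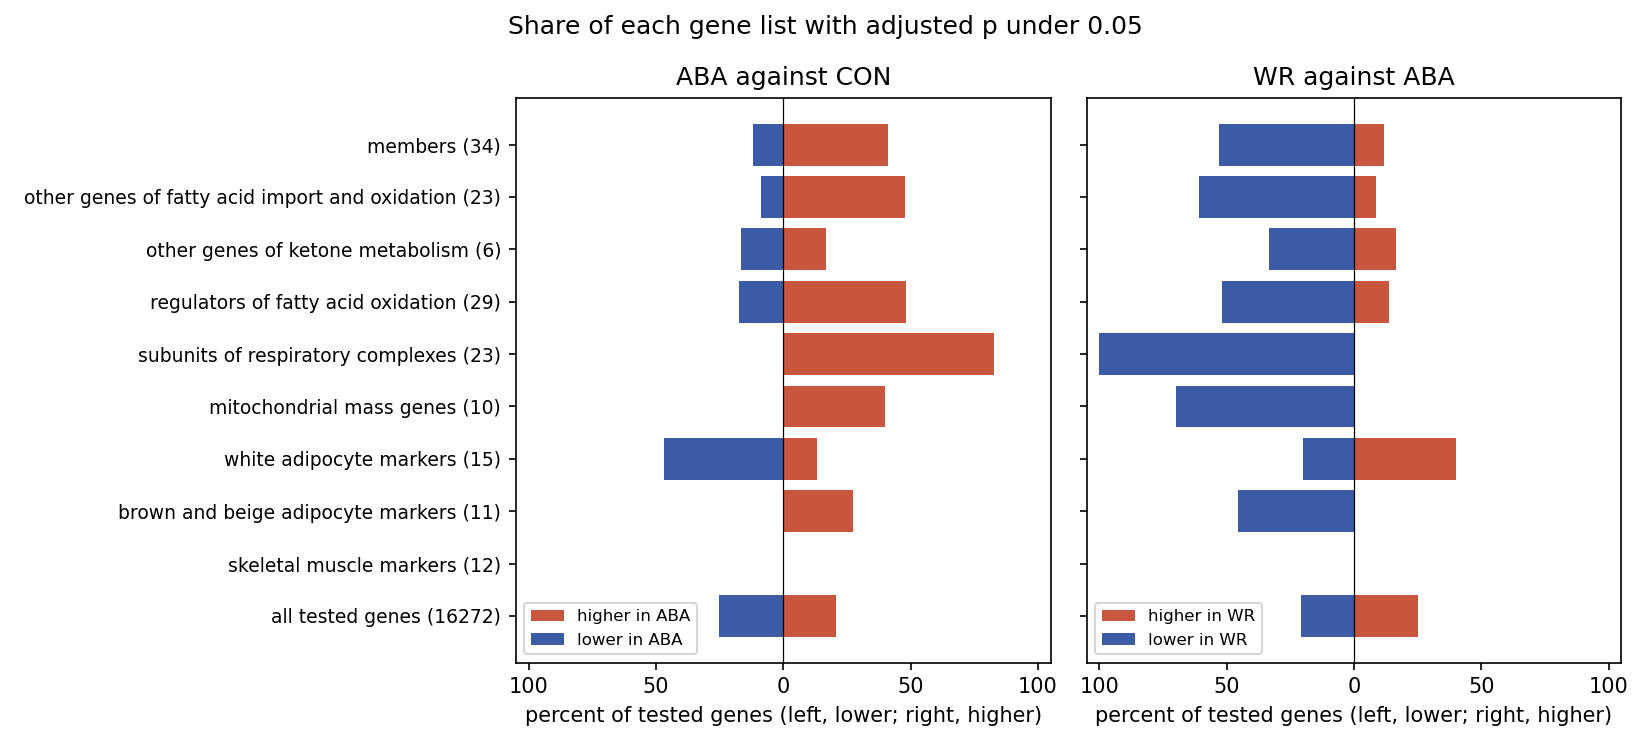
Percent of tested genes called higher (right of 0) or lower (left of 0) in each gene list, with the number tested in parentheses, for ABA against CON (left panel) and WR against ABA (right panel). Members are at 41.2% higher and 11.8% lower in ABA, subunits of respiratory complexes at 82.6% higher, and all tested genes at 20.9% higher and 25.4% lower.

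Among themselves the members covered a wide range of expression. For levels between genes, CPM was divided by the merged exon length of each gene in GENCODE M21. On this scale of average level, *Acadl* was highest at 176 CPM per kb, followed by *Etfb* at 98.8, *Acadm* at 78.4 and *Echdc1* at 75.9 CPM per kb, and the lowest were *Cpt1b* (2.82), *Cpt1c* (1.42) and *Bdh1* (0.256). The order of near neighbours was not tested. Merged exons include those of rare transcripts, so genes with many long isoforms are placed too low.

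Counting may mix some members with neighbours, since the strand setting is not given in the sources used here. Same-strand exons of another annotated gene covered 81.4% of the exon length of *Cpt1b* (*Gm44502*, at -0.19 in WR minus ABA, SE 0.41), 58.2% of *Etfb* (genes not among those tested) and 6.82% of *Acad9* (*Gm43079*, at -0.90 in ABA minus CON, SE 0.36). Opposite-strand exons covered more than 5% of 6 members. They covered 86.4% of *Echdc1*, where *Rnf146* moved the same way (0.41, SE 0.10, in ABA minus CON and -0.42, SE 0.10, in WR minus ABA), and 42.9% of *Acadvl*, where *Dvl2* was not listed in ABA minus CON and stood at -0.08 (SE 0.09) in WR minus ABA. For the other 4, *Bdh1*, *Oxct1*, *Crat* and *Cpt1c*, the share was between 6.53% and 13.7%.

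Promoter windows of the members were searched for short motifs. RefSeq windows of 250 bases before to 50 after the gene start on GRCm38.p6 were matched for 28 of the 34 members, 13 of those that rose and 3 of those that fell in ABA, and each motif was searched on both strands. The GC box GGGCGG was in 20 of the 28 (71.4%, beside 35.7% of 32851 promoters), and the NRF1 motif, read as GCGC, any base, T and GCGC again, was in 6 (21.4%, beside 4.60%): *Acad10*, *Acad12*, *Echdc1*, *Etfb*, *Etfdh* and *Pccb*. The TATA box TATAAA was in none of the 28 (beside 13.6%), and CCAAT was in 11 (39.3%, beside 37.4%). AGGTCA, the hexamer that PPAR, RXR and ERR receptors read, was in 7 of the 28 (25.0%, beside 16.3%), among them *Acadm*, *Acadvl* and *Echs1*, which rose in ABA, and *Cpt1a* and *Echdc3*, which fell. Its direct repeat, AGGTCA followed after any 1 base by AGGTCA, was in none (beside 0.0396% of promoters). The 32851 promoters are counted by window and are not limited to the tested genes, while members are counted by gene. The shares are therefore not of like sets. Such matches say that letters are present in a window and nothing of binding.

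The stretch between *Hadha* and *Hadhb* is shown because both subunit genes start from it and rose in ABA. It holds the 85 bases between their annotated starts, chr5:30155163-30155247 on the plus strand of GRCm38.p6, with its 2 GC boxes in capitals.
Hadha-Hadhb gap: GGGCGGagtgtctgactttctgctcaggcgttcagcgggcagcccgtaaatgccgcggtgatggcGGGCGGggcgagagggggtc

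The upstream stretches of *Acadm* and *Acadvl*, which rose in ABA, and of *Cpt1a*, which fell, are shown because all 3 hold AGGTCA or its reverse complement TGACCT, in capitals, whichever way the gene moved. They are parts of RefSeq windows before the gene start that cover no annotated exon of the gene: chr3:153944644-153944893 on the minus strand for *Acadm*, chr11:70015429-70015678 on the minus strand for *Acadvl* and chr19:3323051-3323284 on the plus strand for *Cpt1a*. The *Cpt1a* stretch lies within an intron of a longer GENCODE model that starts further upstream.
Acadm: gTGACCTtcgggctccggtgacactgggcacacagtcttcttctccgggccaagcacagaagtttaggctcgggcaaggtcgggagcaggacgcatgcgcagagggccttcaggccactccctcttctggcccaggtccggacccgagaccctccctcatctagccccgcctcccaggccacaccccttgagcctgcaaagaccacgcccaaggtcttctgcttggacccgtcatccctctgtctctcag
Acadvl: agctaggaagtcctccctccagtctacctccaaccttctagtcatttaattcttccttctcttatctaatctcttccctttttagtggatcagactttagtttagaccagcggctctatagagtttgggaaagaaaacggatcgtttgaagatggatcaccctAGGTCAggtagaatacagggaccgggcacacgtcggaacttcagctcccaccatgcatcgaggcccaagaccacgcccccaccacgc
Cpt1a: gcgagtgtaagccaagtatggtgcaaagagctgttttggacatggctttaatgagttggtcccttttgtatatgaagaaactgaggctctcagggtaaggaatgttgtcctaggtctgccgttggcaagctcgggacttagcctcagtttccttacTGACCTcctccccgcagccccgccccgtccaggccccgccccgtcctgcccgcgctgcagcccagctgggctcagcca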

How the data were processed

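Perigonadal adipose RNA of 18 mice, 6 each of ABA, WR and CON, was sequenced from TruSeq libraries. Per the submitters' processing notes and the methods, the authors used FastQC 0.11.8, Trimmomatic 0.38, STAR 2.5.1a on GRCm38.p6 and RSEM 1.3.0, required 1 CPM or more in 5 or more samples of a gene, used edgeR's TMM scaling, and modelled condition alone in limma-voom. RSEM divides reads of near-identical genes by estimate, and the strand setting is not given in the sources used here. The deposited log2 fold changes and average log2 CPM are from that fit. The deposited score is limma's moderated t. The deposited p-values belong to that t, and the authors adjusted them with the Benjamini-Hochberg method over all 16272 genes. These are the authors' own comparisons, in 3 of 5 deposited tables, since the others repeat their rows. No other per-sample columns were left aside (0), and no test was fitted anew, so p-values measure the spread between mice as that fit took it.

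The directions of the tables were settled from their values: over 602 genes the 3 comparisons added up within 1.02e-14, but missed by at least 0.327 with 1 sign turned, and *Lep* set the common sign. The SE was the fold change over its t. Confidence intervals of 95% used 18.4 degrees of freedom, which t and p imply. A WR minus CON not listed was taken as the sum of both other comparisons, and its SE as the root of the mean of both squared SEs. Where WR minus CON is listed, this SE had a median ratio of 1.01 to the deposited SE, and the central 95% of ratios ran from 0.924 to 1.41. Group levels were estimated from the average log2 CPM and the fold changes. Every member is named, and of each other list up to 4 genes with the smallest adjusted p, all of a count of 5 or fewer, and further genes chosen after their values were seen. Members and lists were chosen with earlier results of these data known. Some genes of ketone metabolism are not reported here. Alternatives were an adjusted p under 0.01, the Benjamini-Yekutieli adjustment, a fold change of at least 1.5, an average of at least 3 log2 CPM, calls from derived values, other summaries and, added after seeing the data, *Mmut* as a member. Positions and exon lengths are from GENCODE M21 and promoters from RefSeq, both on GRCm38.p6. Python 3.11.15, pandas 2.3.3, scipy 1.17.1 and matplotlib 3.10.9 were used.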

Additional observations from a re-analysis of the deposited data

How the results depend on the processing

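Of 38 alternative values of the 8 results, 33 stayed within their limits, 5 moved and none reversed. With a fold change of at least 1.5 required, 8 members were higher in ABA than in CON in place of 14, and none (0) was higher in WR than in ABA in place of 4. *Acad11*, *Acadm*, *Echdc1*, *Echdc2*, *Echs1* and *Etfa* were the rises lost there. With the Benjamini-Yekutieli adjustment 2 members were lower in ABA than in CON in place of 4 (*Cpt1a* and *Echdc3* lost), and 2 were higher in WR than in ABA, as also at an adjusted p under 0.01. *Cpt1b*, *Acaa2*, *Cpt2*, *Acad9*, *Acad11*, *Echdc3* and *Etfa* were called in WR against ABA at an adjusted p under 0.05 but not under 0.01. In ABA against CON the same held for *Cpt1a*, *Echdc2*, *Echs1* and *Etfa*. The count of 18 members lower in WR than in ABA stayed within 1.5 times under each alternative. The count of 0 in WR against CON also stayed, but stricter thresholds or added minimums could only leave it at 0. Those values are among the 33 and say nothing of robustness. No paired analysis was possible because the tables hold comparisons and not values of single mice, although each CON mouse was matched in time to an ABA mouse. Leaving out single mice was not run for the same reason. Depth per library was not analysed here.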
